A study of Mus musculus with 12 samples.

Results

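The genes described here encode 10 transcription factors of blood stem and progenitor cells, namely Hlf, Mecom, Gata2, Tal1, Lmo2, Lyl1, Runx1, Erg, Fli1 and Etv6. They were chosen by name, and every probe set of the mouse MOE430A array that was annotated to exactly 1 of them was taken, which gave 10 genes of 12393 on the array and 18 probe sets of 22626. RNA had been measured in bone marrow cells of (C57Bl/6Ly-Pep3b×C3H/HeJ) F1 mice older than 12 weeks. The marrow was taken 4 days after 5-fluorouracil at 150 mg/kg, and was prestimulated for 48 hours with interleukin-6, interleukin-3 and stem cell factor. The cells were then cocultured for 2 days with irradiated GP+E86 fibroblasts that produced a murine stem cell virus vector, and 24 hours later the GFP+, Sca-1+ cells without lineage markers were sorted. The groups differed only in what the vector carried ahead of an internal ribosome entry site and GFP. The GFP control (MIG) carried no fusion, ND13 is NUP98-HOXD13, NA10 is NUP98-HOXA10, and ND13(N51S) is the ND13 fusion with a mutated homeodomain that presumably no longer binds DNA. Each group had 3 arrays, numbered 1 to 3, from 3 experiments that the design text calls independent. All groups therefore share the fluorouracil, the cytokines, the virus and a viral promoter, so that the fusions are driven at the level of that promoter in cells that are already dividing in culture.

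Blood stem cells are kept by a small network of transcription factors that bind each other's genes and often the same enhancers. Tal1 and Lyl1 are basic helix-loop-helix factors that bind E-boxes with E-protein partners and are bridged by Lmo2 and Ldb1 to GATA factors such as Gata2. Erg, Fli1 and Etv6 belong to the ETS family, Runx1 is the DNA-binding partner of Cbfb, Mecom is a zinc finger factor, and Hlf is a PAR basic leucine zipper factor known as a marker of stem cells and from a fusion with an E protein in leukemia.

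The start regions of the members with a probe set whose arrays did not overlap between NA10 and the GFP control are printed first, as far as the RefSeq table (GRCm38.p6) held them. The table matched 8 of the 10 genes with 14 windows of 300 bases, from 250 before to 50 after an annotated start, and Lmo2 and Fli1 were not matched. The letters searched on both strands were AGATAA for GATA factors, CANNTG for E-boxes, CCGGAA for ETS factors, TGTGGT for RUNX factors, TTACNTAA for PAR leucine zipper factors, TTTATN for HOX factors and TGATTNAT for PBX with HOX, of which the HOX letters can overlap the GATA and the PBX with HOX letters. Matches are in capitals in the sequences of Hlf (chr11:90390868-90391167, minus strand), Gata2 (chr6:88193641-88193940 and chr6:88198414-88198713, plus strand) and Lyl1 (chr8:84701207-84701506, plus strand).
Hlf: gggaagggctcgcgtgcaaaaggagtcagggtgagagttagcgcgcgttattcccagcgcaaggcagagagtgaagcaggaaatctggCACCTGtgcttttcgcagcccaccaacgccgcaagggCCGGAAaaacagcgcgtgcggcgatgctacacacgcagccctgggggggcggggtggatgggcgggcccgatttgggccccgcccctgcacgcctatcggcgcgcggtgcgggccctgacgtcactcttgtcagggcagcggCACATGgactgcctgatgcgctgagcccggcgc
Gata2, upstream start: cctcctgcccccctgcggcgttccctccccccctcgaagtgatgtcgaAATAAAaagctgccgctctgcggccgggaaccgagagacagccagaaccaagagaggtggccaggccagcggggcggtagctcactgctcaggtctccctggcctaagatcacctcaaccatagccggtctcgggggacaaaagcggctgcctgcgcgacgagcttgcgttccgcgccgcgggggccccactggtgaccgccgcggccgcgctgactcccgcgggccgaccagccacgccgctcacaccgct
Gata2, downstream start: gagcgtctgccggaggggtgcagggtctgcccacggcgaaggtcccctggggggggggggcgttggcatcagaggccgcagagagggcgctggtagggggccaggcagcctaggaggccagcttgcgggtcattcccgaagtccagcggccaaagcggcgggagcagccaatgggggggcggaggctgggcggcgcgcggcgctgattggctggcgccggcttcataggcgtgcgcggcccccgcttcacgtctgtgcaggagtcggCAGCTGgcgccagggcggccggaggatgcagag
Lyl1: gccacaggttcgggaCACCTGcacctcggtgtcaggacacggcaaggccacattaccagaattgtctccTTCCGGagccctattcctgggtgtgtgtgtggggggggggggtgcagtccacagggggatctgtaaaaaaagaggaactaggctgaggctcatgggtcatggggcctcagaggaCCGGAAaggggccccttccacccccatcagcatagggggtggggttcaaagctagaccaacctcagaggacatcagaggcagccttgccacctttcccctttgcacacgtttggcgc
The Hlf window held an E-box beginning at -162, an ETS match at -125 and an E-box at 18, counted from the start. It held no HOX, PBX with HOX, PAR, GATA or RUNX letters. The Lyl1 window held ETS matches at -181 and -67 and an E-box at -235, while the upstream Gata2 window held only a HOX match and the downstream one only an E-box. Of 32851 mouse start windows, 72.3% held the E-box letters, 39.9% the HOX letters, 16.8% the RUNX, 14.9% the ETS, 11.2% the GATA, 3.2% the PBX with HOX and 2.3% the PAR letters. These matches describe letters and were not tested against the expression values.

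Signals were MAS5 values, scaled by the authors to a common level, so that the 12 arrays had equal trimmed means. The background of an array, the level under which 95% of the 27 control probe sets for bacterial RNA lay, was 28.5 to 69.8, and 14446 to 17695 probe sets lay above it. The number of arrays limits the precision. In 11 arrays the ratio of 3′ to 5′ signal of Gapdh, a measure of RNA integrity and amplification, was 1.90 to 2.71, but in ND13(N51S) replicate 2 it was 48.9, and that of actin was 9.09 against 1.72 to 2.38. The experiment record of GFP control replicate 1 names the ND13 N51S cells and a GFP- fraction in place of its label, and the label was kept. Single member values against the GFP control are given without either array as well where that moved them by over 1.5 times. Of the genes taken as markers of blood cells and progenitors, Kit, Ptprc and Cd34 were measured and were above background on all arrays, with a summed signal of 8779 to 10853 in every group. Markers of other cells were summed as well. The ND13(N51S) arrays had the highest range for neutrophil and monocyte markers (25126 to 29191 beside 14128 to 25654 in the other groups), erythroid markers (461 to 491 beside 175 to 401, with Alas2 above background on 0 arrays) and fibroblast markers (869 to 1496 beside 411 to 1129). The first and last of these ranges overlapped those of other groups, and their single markers did not all move alike. Among the neutrophil and monocyte markers, the mean of Mpo was 10302 in ND13(N51S) beside 7542 in the GFP control. Ctsg, Lyz2, Csf1r, Itgam and Ltf were also higher there. Prtn3 (4188 beside 5125), Elane (442 beside 490) and Camp (39.3 beside 40.8) were lower, as was Col3a1 alone among the fibroblast markers. In such bulk samples, fewer cells of a type and less RNA per cell cannot be told apart.

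None of the 18 probe sets passed the test of the fit of all arrays, limma with Benjamini-Hochberg adjustment over all probe sets and a change of at least 1.5-fold. This held for 0 of 18 in ND13 against the GFP control (0.0884% of all probe sets were called), in NA10 against that control (0.0133%) and in ND13(N51S) against it (0%). It also held against ND13(N51S) for ND13 (0.0133%) and NA10 (0.00884%), for ND13 against NA10 (0.0177%) and for the active fusions ND13 and NA10 together against the other groups together (0.0354%). At an unadjusted p < 0.05 with the same fold in limma, 1 of the 18 lay past the threshold in ND13 against the GFP control (4.93% of all probe sets) and 2 in NA10 against it (4.03%), all of them Hlf. For ND13(N51S) against the GFP control there were 0 (6.84%), for ND13 against ND13(N51S) there were 2, of Gata2 and Runx1 (6.99%), and for NA10 against ND13(N51S) there were 4, of Hlf, Runx1 and Fli1 (7.8%). For ND13 against NA10 there was 1, of Hlf (3.31%), and for the active fusions against the other groups there were 3, of Hlf and Fli1 (5.34%).

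The methods' t-test called 0 of the 18 in every comparison after adjustment, as it did of all probe sets in 6 comparisons (0%), with 0.00442% called for the active fusions against the other groups. At an unadjusted p it passed 2 member probe sets in NA10 against the GFP control (Hlf, 3.2% of all probe sets), 1 in ND13 against ND13(N51S) (Gata2, 4.36%), 1 in ND13 against NA10 (Hlf, 2.89%) and 2 for the active fusions against the other groups (Hlf, 4.34%). It passed 0 in ND13 (3.74%) or ND13(N51S) (4.08%) against the GFP control and in NA10 against ND13(N51S) (5.47%). Arrays did not overlap for 5 member probe sets that were higher in NA10 than in the GFP control, of Hlf, Gata2, Lyl1 and Fli1 (5.6% of all probe sets), and for 2 of Hlf that were higher in NA10 than in ND13(N51S) (4.3%). They also did not overlap for Gata2, which was higher in ND13(N51S) than in the GFP control (8.5%) and lower in ND13 than in ND13(N51S) (8.04%), and for 3, of Hlf, Gata2 and Lyl1, that were lower in ND13 than in NA10 (4%).

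With the replicate number as a block, which compares arrays of the same number, Hlf was the member that was called. The labels do not say that a number marks 1 experiment shared by the groups. Deviations of same-numbered arrays correlated at 0.106 to 0.596 over the brighter probe sets but at only 0.0308 to 0.156 over all of them, and the block was adopted after both fits had been seen, so that every blocked call rests on this pairing. Probe set 1434736_at of Hlf rose in NA10 against the GFP control and in the active fusions against the other groups, 1 of 18 in each, where 0.0398% and 0.102% of all probe sets were called. The blocked fit called 0 of the 18 for ND13 (0.296%) and ND13(N51S) (0.0265%) against the GFP control, for ND13 (0.0796%) and NA10 (0.0442%) against ND13(N51S) and for ND13 against NA10 (0.0398%). As a whole, the 18 probe sets had a median log2 fold change of 0.26 in NA10 against the GFP control, with 13 of 18 above 0. Over all probe sets the median was -0.01, with 48.7% above 0. In ND13 the median was 0.08, with 12 of 18 above 0, and in ND13(N51S) it was -0.10, with 8 of 18 above 0. Over all probe sets these medians were 0.00035 and 0.07, with 50% and 56.2% above 0. The median depended on how genes with several probe sets were counted, among them Runx1, which has 5 of the 18. With 1 probe set for each of the 10 genes it was 0.21 in ND13(N51S), of the opposite sign, with 7 of 10 above 0, beside 0.23 in NA10 and 0.03 in ND13. Without ND13(N51S) replicate 2 and without Erg, which was under background, the median of the other 17 probe sets in ND13(N51S) was 0.16. Over all probe sets the median without that array was 0.10. The plot of fold changes shows that the 2 Hlf probe sets lay apart from the others in NA10.

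**Figure D1:**
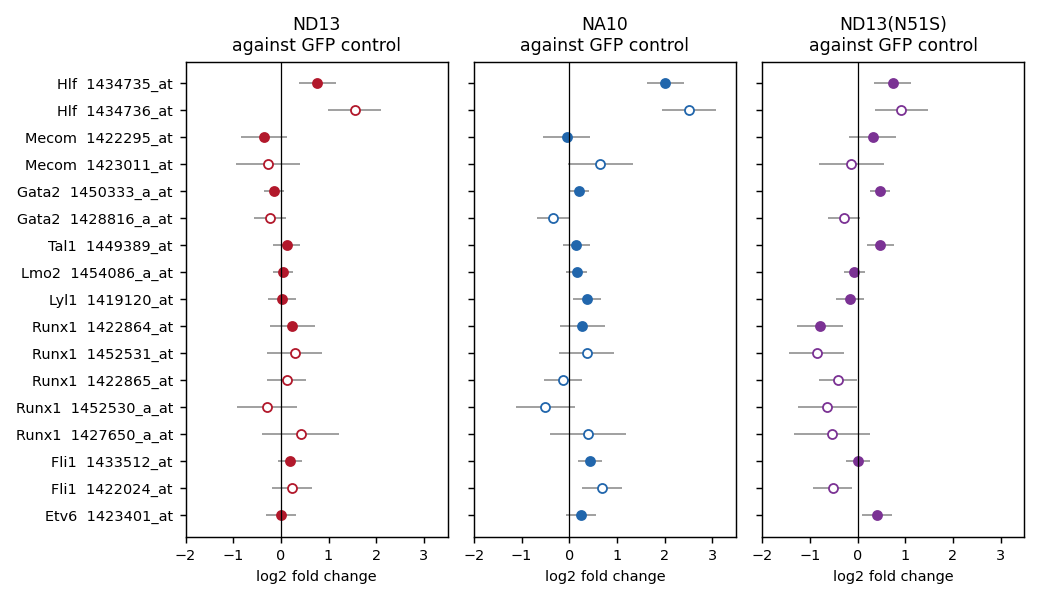
Log2 fold change of 17 probe sets (Erg, under background, is left out) against the GFP control, in panels for ND13, NA10 and ND13(N51S), with limma's SE as bars (3 arrays per group); filled circles are the probe sets that stand for their gene and open circles the others. In NA10 the Hlf probe sets lie at 2.02 and 2.51, and the other 15 lie between -0.50 and 0.69.

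Hlf, which the study had itself singled out on these arrays, had its highest group mean with NA10 on both of its probe sets. On 1434735_at the signal was 374, 678 and 593 in the GFP control arrays 1 to 3, and 1297, 991 and 571 with ND13. It was 2456, 1951 and 2082 with NA10, whereas ND13(N51S) gave 1656, 700.0 and 595. All 3 NA10 arrays were above every other array, whereas the ND13 and ND13(N51S) arrays overlapped each other and the GFP control. The group means were 548 ± 157, 953 ± 365, 2163 ± 262 and 984 ± 585 (SD, n = 3 each). The order was thus NA10 above ND13(N51S), ND13 and the GFP control, and these last 3 did not separate beyond their spread.

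Against the GFP control, the log2 fold change of this probe set in NA10 was 2.02 ± 0.38 (SE, adjusted p = 0.228 in limma), and with the replicate block the adjusted p was 0.0853. Against ND13(N51S) NA10 was higher by 1.28 ± 0.38 log2 units (adjusted p = 0.38), and ND13 lay 1.25 ± 0.38 log2 units under NA10, a log2 fold change of -1.25 (adjusted p = 1, limma). The log2 fold change was 0.76 for ND13 (adjusted p = 0.892) and 0.73 for ND13(N51S) (adjusted p = 0.691) against the GFP control. Without GFP control replicate 1 these were 0.51 and 0.48, or 0.24 and 0.21 with the replicate block. The difference of ND13(N51S) from the control lay in array 1, with a log2 difference of 2.15 to the GFP control of the same number, while arrays 2 and 3 differed by 0.05 and 0.01. GFP control replicate 1, whose record is in doubt, had the lowest Hlf signal on this probe set, and without it and ND13(N51S) replicate 2 the fold change of NA10 was 1.76 (adjusted p = 0.467). Without GFP control replicate 1 alone, the replicate block gave 1.49 (adjusted p = 0.273), and without ND13(N51S) replicate 2 alone it gave 2.02 and was called (adjusted p = 0.0267).

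On the other Hlf probe set, 1434736_at, the signal was 190, 301 and 143 in the GFP control and 1150, 622 and 285 with ND13. It was 2078, 1106 and 662 with NA10, whereas ND13(N51S) gave 603, 493 and 185. The NA10 arrays again lay above all GFP control and all ND13(N51S) arrays, and ND13 overlapped each of the other groups. Within each of the 3 array numbers the order was the same, with NA10 above ND13, ND13 above ND13(N51S) and ND13(N51S) above the GFP control, as the lines of the plot of Hlf signals show.

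**Figure D2:**
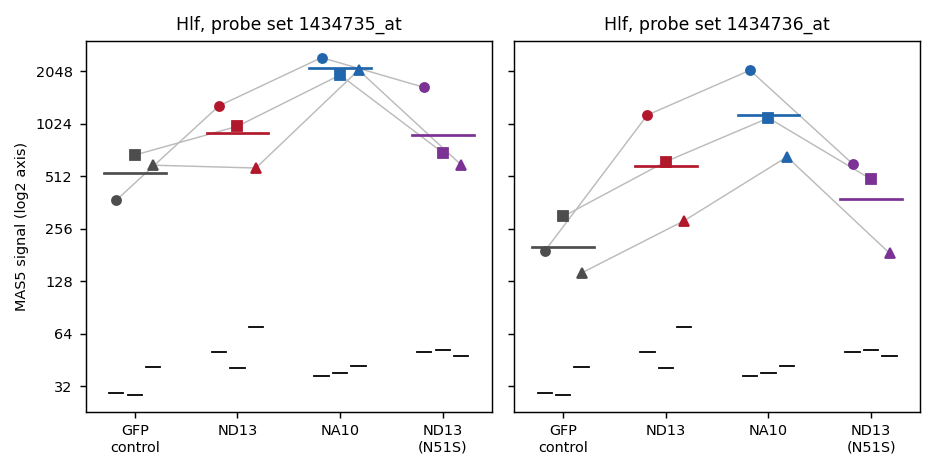
MAS5 signal (log2 axis) of the 2 Hlf probe sets in the 4 groups; circles, squares and triangles are arrays 1, 2 and 3, grey lines join arrays of the same number, coloured bars are means of the log2 signal, and short black bars are the background of each array. On 1434736_at every line has its peak at NA10, where the signals are 2078, 1106 and 662.

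The group means of 1434736_at were 211 ± 81.2 in the GFP control, 685 ± 436 in ND13, 1282 ± 724 in NA10 and 427 ± 217 in ND13(N51S) (SD, n = 3 each). The mean of ND13 was thus above that of ND13(N51S) here, unlike on 1434735_at. Between arrays of the same number, Hlf was higher in NA10 than in the GFP control by 3.45, 1.88 and 2.21 log2 units for numbers 1, 2 and 3. For ND13 the differences were 2.59, 1.05 and 0.997, and for ND13(N51S) they were 1.66, 0.71 and 0.37. The arrays numbered 1 had the largest difference in all 3 fusions, and GFP control array 1 is the one with the doubtful record. In the fit without the block, the fold change in NA10 was 2.51 ± 0.56 (SE, adjusted p = 0.377 in limma). With the block Hlf rose in NA10 (adjusted p = 0.0146), and it rose in the active fusions against the other groups by 1.57 log2 units (adjusted p = 0.017, against 0.273 without the block). On 1434735_at the latter difference was 1.02 and was not called (adjusted p = 0.135 with the block, limma). ND13 alone was not called against ND13(N51S) on either probe set. The log2 fold change was 0.63 on 1434736_at (adjusted p = 0.454 with the block) and 0.03 on 1434735_at (adjusted p = 0.98 with the block).

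The call of 1434736_at depended on the arrays in the fit. With the block, it was kept in NA10 against the GFP control when 9 of the 12 arrays were left out in turn, and was lost without NA10 replicate 1 (adjusted p = 0.146), replicate 2 (0.0571) or replicate 3 (0.172), which leave 2 NA10 arrays. In the active fusions against the other groups it was kept in 7 of 12, and it was lost without any 1 of the ND13 arrays (adjusted p = 0.0899, 0.0697 and 0.051) or without NA10 replicate 1 (0.096) or replicate 3 (0.109). Without ND13(N51S) replicate 2, the blocked fit also called ND13 against the GFP control (1.55, adjusted p = 0.0253). Without GFP control replicate 1, it also called NA10 against ND13(N51S) (1.60, adjusted p = 0.021).

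When both doubtful arrays were left out of the blocked fit, a setting added after seeing the data, Hlf 1434736_at was called in 5 of the 7 comparisons. It rose by 1.06 log2 units in ND13 (adjusted p = 0.0282) and by 2.03 in NA10 (adjusted p = 0.000588) against the GFP control, by 1.76 in NA10 against ND13(N51S) (adjusted p = 0.00179) and by 1.41 in the active fusions against the other groups (adjusted p = 0.000368, limma). ND13 was lower than NA10, with a log2 fold change of -0.97 (adjusted p = 0.0383). Hlf was the 1 member of 18 called in each of these comparisons, where 0.446%, 0.0796%, 0.239%, 0.703% and 0.106% of all probe sets were called, and 0 of 18 were called in ND13(N51S) against the GFP control (0.00884%) or in ND13 against ND13(N51S) (0.265%). The other probe set of Hlf was not called there, with 1.52 in NA10 against the GFP control (adjusted p = 0.0501). With the same arrays left out but no block, 1434736_at was at 2.47 in NA10 against the GFP control and was not called (adjusted p = 0.647, limma).

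Both Hlf probe sets were designed on the same transcript record, and their log2 signals had a Pearson r of 0.88 over the 12 arrays, which share groups and numbers. The genes whose log2 signal was most like that of Hlf 1434735_at, out of 11259 candidates, were Tspan13 (r = 0.94), a tetraspanin, Hacd4 (r = 0.92), an enzyme of fatty acid elongation, and 4931406C07Rik (r = 0.89). They were picked by this likeness on the same arrays, so that a highest group mean with NA10, as for Hlf, follows largely from the choice. Their means with NA10 were 3055 for Tspan13, 912 for Hacd4 and 994 for 4931406C07Rik, beside 1625, 205 and 546 in the GFP control. These values are descriptions of 12 arrays. The summed signal of 6 megakaryocyte markers, of which 4 were above background on all arrays, was also higher with the fusions. It was 2862 to 4853 in the GFP control, 5442 to 6920 with ND13, 6605 to 7109 with NA10 and 5420 to 8863 with ND13(N51S). Pf4 was the largest part of it, with means of 2951, 4612, 5235 and 5259 in these groups. The means of Itga2b, Gp9, Ppbp and Vwf were also higher in each fusion than in the GFP control. Gp1bb had means of 135, 137, 120 and 165, the lowest with NA10. The part of this sum in the Hlf values was not tested.

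Of the factors that form a complex with E proteins, Tal1, which directs the choice of blood fate, was measured by 1 probe set. Its signal was 696, 837 and 925 in the GFP control, 816, 827 and 1042 in ND13, 782, 911 and 1038 in NA10 and 692, 1696 and 1230 in the ND13(N51S) arrays. All groups overlapped, and the highest array was ND13(N51S) replicate 2. The log2 fold changes against the GFP control were 0.13, 0.15 and 0.47 (adjusted p = 1, 1 and 0.716, limma), and the last was 0.18 without ND13(N51S) replicate 2. Without GFP control replicate 1 those of ND13 and NA10 were 0.015 and 0.039. For ND13 and NA10 the 95% intervals of the fold change were -0.48 to 0.74 and -0.46 to 0.76 log2 units.

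Lyl1, the close relative of Tal1, had signals of 1055, 1238 and 894 in the GFP control and 998, 1047 and 1162 with ND13. They were 1344, 1339 and 1382 with NA10, whereas ND13(N51S) gave 1425, 526 and 1112. The NA10 arrays agreed closely with each other, at 1355 ± 23.1 (SD, n = 3), and lay above all GFP control and ND13 arrays. The difference to the GFP control was 0.36 ± 0.29 log2 units (adjusted p = 1, limma), under the 1.5-fold threshold. ND13(N51S) replicate 2 was the lowest of all 12 arrays, and the fold change of ND13(N51S) was -0.16 with it and 0.26 without it.

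Lmo2, the bridging protein of the complex, varied little, between 3606 and 6567 over all arrays. Its means were 4961 ± 1100 in the GFP control, 5142 ± 1240 in ND13, 5430 ± 230 in NA10 and 4732 ± 982 in the ND13(N51S) arrays (SD, n = 3 each), and the groups overlapped. Its log2 fold changes against the GFP control were 0.05, 0.15 and -0.07, with 95% intervals that reached from -0.53 to 0.62 in all. Without GFP control replicate 1 the first and the last were 0.08 and -0.04, and without ND13(N51S) replicate 2 the last was -0.17.

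Gata2, the GATA factor of stem cells and of the mast cell and megakaryocyte lineages, was the member with separate groups on the side of the homeodomain mutant. On 1450333_a_at, its signal was 821, 918 and 838 in the GFP control, 705, 870 and 761 in ND13, 934, 962 and 1096 in NA10 and 1084, 1578 and 992 in the ND13(N51S) arrays. All ND13(N51S) arrays were above all GFP control and all ND13 arrays, and all NA10 arrays were above both of these groups as well. The fold change of ND13 against ND13(N51S) was -0.62 ± 0.20 (SE, unadjusted p = 0.00939, adjusted p = 0.497, limma), and it was -0.42 without ND13(N51S) replicate 2 (adjusted p = 0.624). Against the GFP control the log2 differences were 0.48 for ND13(N51S) (adjusted p = 0.637), 0.21 for NA10 and -0.15 for ND13 (both adjusted p = 1). That of ND13(N51S) was 0.27 without its replicate 2 (adjusted p = 0.771, limma).

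The other Gata2 probe set, 1428816_a_at, had lower means in all 3 fusions than in the GFP control, at 192, 174 and 186 against 219, and its arrays overlapped in every comparison. Its log2 signal was barely related to that of 1450333_a_at, with r = 0.15 over 12 arrays, so the pattern of Gata2 rests on 1 probe set. The summed signal of mast cell and basophil markers was high in ND13(N51S) as well. The summed signal of 6 such markers was 4343 to 7584 there, above the 2196 to 3811 of the GFP control and the 2743 to 3114 of ND13, and overlapped the 2795 to 4973 of NA10. Of them, Cpa3 was higher in ND13(N51S) than in the GFP control by 1.39 log2 units (adjusted p = 0.266) and Fcer1a by 1.84 (adjusted p = 0.431, limma). Cpa3 was the largest part of the sum, with a mean of 3106 beside 1152. The means of Ms4a2 (257 beside 108), Mcpt8 (1364 beside 1044) and Hdc (175 beside 135) were also higher there. That of Tpsb2 was lower, at 31.8 beside 53.8, and it was above background on 6 of 12 arrays. The part of these markers in the Gata2 values was not tested.

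Runx1, the factor needed for the first blood stem cells, had 5 probe sets. On 1422864_at, the signal was 391, 409 and 522 in the GFP control, 642, 476 and 449 in ND13, 531, 396 and 703 in NA10 and 245, 105 and 626 in the ND13(N51S) arrays. The groups overlapped, and 2 arrays of ND13(N51S) were the lowest of all while the other was among the highest. The log2 fold changes over ND13(N51S) were 1.03 for ND13 (unadjusted p = 0.0491, adjusted p = 0.634) and 1.07 for NA10 (unadjusted p = 0.0429, adjusted p = 0.564, limma). Without ND13(N51S) replicate 2 they were 0.40 (adjusted p = 0.864) and 0.43 (adjusted p = 0.776).

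All 5 Runx1 probe sets had their lowest signal in ND13(N51S) replicate 2, from 12.1 on 1427650_a_at to 105 on 1422864_at, and on 4 of them it was below the background of that array. Over the 18 member probe sets, this array was the lowest of the 12 in 7 (38.9%), 5 of them of Runx1, and the highest in 3 (16.7%). Over all probe sets it was the lowest in 17% and the highest in 17%. Over those above background on at least 6 arrays it was so in 21% and 19.1%. Its Gapdh ratio is the raised value given above, and the part of this in the low Runx1 signals was not tested. Without this array, the log2 signals of 1422864_at had a Pearson r from -0.36 with 1452530_a_at to 0.80 with 1427650_a_at, over 11 arrays. Against the GFP control, ND13 and NA10 lay at -0.50 to 0.42 log2 units on the 5 probe sets (-0.41 to 0.49 without GFP control replicate 1), and no Runx1 probe set separated either from the control. The plot of deviations by array shows that replicate 2 stood low in Runx1, Lyl1 and Fli1 1422024_at and high in Tal1 and Gata2.

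**Figure D3:**
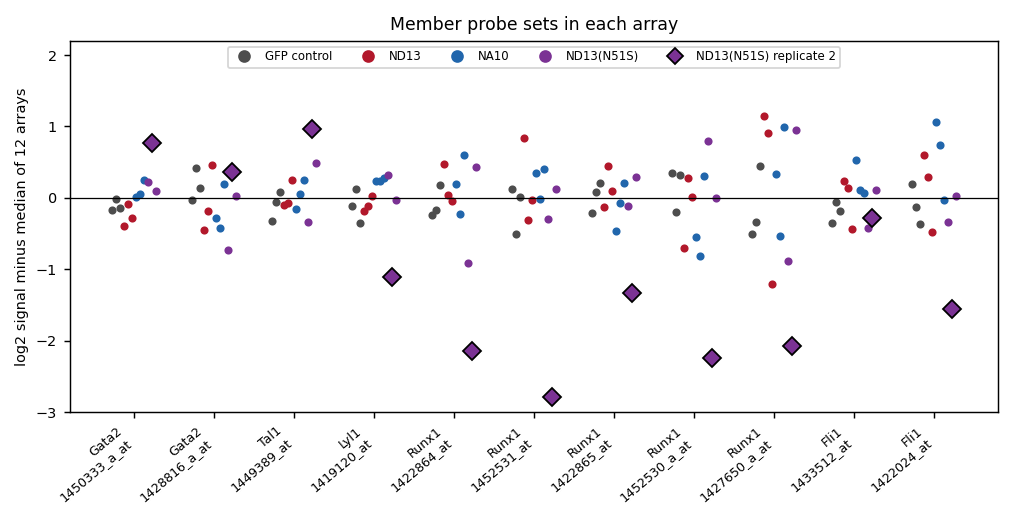
Log2 signal of each array minus the median of the 12 arrays, for the 11 probe sets of Gata2, Tal1, Lyl1, Runx1 and Fli1; colours are the groups and the diamond is ND13(N51S) replicate 2. The diamond is the lowest point in all 5 Runx1 probe sets and the highest in Tal1 and in Gata2 1450333_a_at.

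Among the ETS factors, Fli1, which acts in stem cells and megakaryocytes, had signals on 1433512_at of 289, 355 and 325 in the GFP control and 438, 409 and 276 with ND13. They were 537, 401 and 388 with NA10, whereas ND13(N51S) gave 278, 305 and 401. The NA10 arrays were all above the GFP control arrays, by 0.44 ± 0.25 log2 units (SE, adjusted p = 1, limma), whereas the arrays of ND13 and ND13(N51S) overlapped both.

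On the other Fli1 probe set, 1422024_at, the signal was 338, 270 and 230 in the GFP control, 446, 362 and 211 in ND13, 618, 495 and 290 in NA10 and 233, 101 and 300.4 in the ND13(N51S) arrays. The means of NA10 and ND13(N51S) lay furthest apart, but their arrays overlapped. NA10 was above ND13(N51S) by 1.22 ± 0.42 log2 units (unadjusted p = 0.0115, adjusted p = 0.45, limma), and by 0.75 without ND13(N51S) replicate 2 (adjusted p = 0.613). The active fusions were above the other groups by 0.73 ± 0.29 (unadjusted p = 0.0278, adjusted p = 0.571), and by 0.49 without that array (adjusted p = 0.61). The Fli1 probe sets had r = 0.73 over 12 arrays.

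Etv6, an ETS repressor needed by adult stem cells, had signals of 160, 284 and 205 in the GFP control and 146, 206 and 316 with ND13. They were 263, 213 and 278 with NA10, whereas ND13(N51S) gave 244, 358 and 250. The groups overlapped, and the log2 fold changes against the GFP control were 0.01, 0.25 and 0.41 (adjusted p = 1, 1 and 0.771, limma). The last was 0.23 without ND13(N51S) replicate 2, its highest array, and without GFP control replicate 1, the lowest control array, the 3 values were -0.19, 0.05 and 0.21. Erg, whose single probe set 1425370_a_at had signals of 6.17 to 17.4, was above background in 0 of 12 arrays, so that only a bound of 28.5 to 69.8 signal units can be given and no fold change.

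Mecom, the zinc finger gene whose products include the shorter Evi1 form, had 1 probe set above background on all arrays. On 1422295_at the signal was 90.6, 79.7 and 148 in the GFP control, 111, 52.4 and 88.7 in ND13, 120.0, 55.5 and 144 in NA10 and 197, 69.4 and 150.2 in the ND13(N51S) arrays. Array 2 had the lowest signal in each group, and the groups overlapped. The log2 fold changes against the GFP control were -0.35, -0.05 and 0.31 (adjusted p = 1, 1 and 0.89, limma). That of ND13(N51S) was 0.75 without its replicate 2, and that of NA10 was -0.14 without GFP control replicate 1. The 95% interval for NA10, -1.11 to 0.999, covers changes of 1.5-fold in either direction. The other Mecom probe set, 1423011_at, was designed on the transcript record that the paper lists for its Evi1 primers. By quantitative RT-PCR with these primers, the paper reported Evi1 above the control in each fusion, most in NA10 and least in ND13(N51S). Its own array values for Evi1 had the same order with smaller changes. On the deposited signals, 1423011_at had r = 0.05 with 1422295_at. The probe set was above background in 3 of 12 arrays, 1 of the GFP control and 2 of NA10. Its means, all near background, were 31.5 in the GFP control, 25.6 in ND13, 48.3 in NA10 and 29.1 in the ND13(N51S) arrays. The log2 fold change of NA10 on it was 0.65 ± 0.68 (SE), and 0.25 without GFP control replicate 1. The genes most like Mecom 1422295_at over the 12 arrays were Tlr4 (r = 0.92), Mapk9 (r = 0.91) and Gna11 (r = 0.89), out of 11260 candidates.

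**Figure D4:**
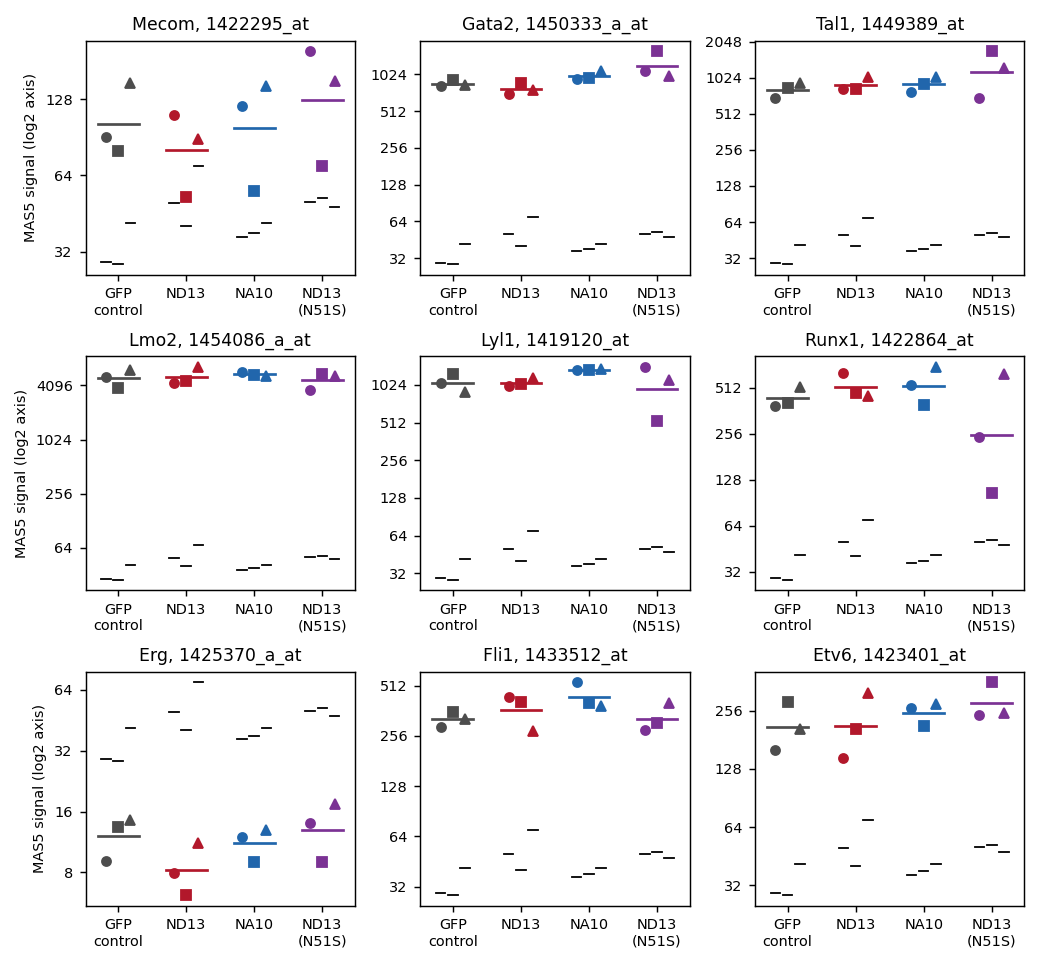
MAS5 signal (log2 axis, a separate range in each panel) of the probe sets that stand for the 9 members other than Hlf; circles, squares and triangles are arrays 1, 2 and 3, coloured bars are means of the log2 signal, and short black bars the background of each array. Erg lies under its background in all 12 arrays, and the ND13(N51S) arrays spread from 105 to 626 in Runx1.

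The genes around these factors were taken from lists, each gene by its brightest probe set. Of the 10 partners and cofactors, all were measured and 0 were called in any of the 7 comparisons in either direction, with or without the block in limma. At most 0.296% of all probe sets were called in these fits. At an unadjusted p < 0.05 and 1.5-fold, 1 partner of 10 lay past the threshold in each comparison with the GFP control. Beside it, 4.93% of all probe sets lay past it in ND13, 4.03% in NA10 and 6.84% in the homeodomain mutant. That partner was in each case Zfpm1 (Fog1), the cofactor of GATA factors. Its mean signal was 124 in the GFP control, 211 in ND13, 243 in NA10 and 230.3 in the ND13(N51S) arrays, and its log2 fold changes were 0.75, 0.99 and 0.91 (adjusted p = 0.711, 0.713 and 0.48). The median over the partners was 0.28 in ND13, 0.21 in NA10 and 0.04 in the ND13(N51S) arrays, beside 0.013, -0.0047 and 0.093 over all genes.

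Of 18 close relatives of the members, 16 were measured and 0 were called. At an unadjusted p < 0.05 and 1.5-fold, those past the threshold lay in comparisons with ND13(N51S). They were Gata1 and Elf4 in ND13(N51S) against the GFP control (2 of 16, where 6.84% of all probe sets lay past it). Gata1, the GATA factor of red cells and megakaryocytes, had a mean of 207 with ND13(N51S) beside 120.0 in the GFP control (log2 fold change 0.74, adjusted p = 0.615), and Elf4, an ETS factor, 262 beside 170.4 (0.62, adjusted p = 0.624, limma). In ND13 against ND13(N51S) they were Gata1 (-0.84), Elf4 (-0.76), Gata3 (-2.29) and Runx3 (1.47), thus 1 higher and 3 lower of 16, beside 6.99% of all probe sets. In NA10 against ND13(N51S) they were Elf4 (-0.94) and Runx3 (1.49), 1 lower and 1 higher of 16, beside 7.8%. Gata3 also lay past it in the active fusions against the other groups (-1.47, 1 of 16, beside 5.34%), but it was above background on 1 of 12 arrays, and Runx3 was on 7.

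Of 16 stem and progenitor cell genes, 15 were measured and 0 were called. Past the unadjusted threshold against the GFP control were Procr and Pf4 in ND13 (2 of 15, beside 4.93% of all probe sets), Procr, Pf4 and Emcn in NA10 (3, beside 4.03%) and Pf4 and Emcn in the ND13(N51S) arrays (2, beside 6.84%). Procr, the protein C receptor found on stem cells, had means of 169 in the GFP control, 348 in ND13, 385 in NA10 and 217 in the ND13(N51S) arrays. Its log2 fold change was 1.02 in ND13 (unadjusted p = 0.0014, adjusted p = 0.296), 1.20 in NA10 (unadjusted p = 0.000354, adjusted p = 0.316) and 0.92 in the active fusions against the other groups (unadjusted p = 0.000168, adjusted p = 0.128, limma). Pf4, which encodes platelet factor 4, was higher in all 3 fusions by 0.68 to 0.87 log2 units (adjusted p = 0.42 to 0.713). Emcn, which encodes endomucin, was above background on 8 of 12 arrays, with log2 fold changes of 1.47 in NA10 and 1.57 in ND13(N51S) (adjusted p = 1 and 0.576, limma). The median over this list against the GFP control was 0.12 in ND13, 0.42 in NA10 and 0.37 in the ND13(N51S) arrays, beside 0.013, -0.0047 and 0.093 over all genes.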

How the data were processed

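RNA of GFP+, Sca-1+ cells without lineage markers was measured on 12 MOE430A arrays, 3 for each of the 4 groups, which were taken from the labels. The authors deposited MAS5 signal intensities on a linear scale for 22690 probe sets, scaled to a common trimmed mean, and the GC-RMA values of the study were not used here. Probe sets were named through the platform annotation (20380 with 1 gene, 691 with several, 1555 with none, 20351 of them matched in RefSeq). The 64 control probe sets were left out. Intensities were put on the log2 scale (floor 0.01, reached by 0 values) and tested with limma 3.58.1 in R 4.3.3, lmFit and eBayes with trend and robust, on all groups, with Benjamini-Hochberg adjustment over 22626 probe sets. A call needed an adjusted p < 0.05 and 1.5-fold. Each SD is of signals and each SE is of log2 values. The code was tested on simulated data. Sequences and plots used Python 3.11.15 and matplotlib 3.10.9.

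The probe set with the highest mean stands for its gene. Probe sets are given by array if they stand for a gene or had an unadjusted p < 0.05 with 1.5-fold in a comparison. Members and lists were chosen with earlier results of these data known. Cell type lists (blood progenitor, neutrophil and monocyte, erythroid, megakaryocyte, mast cell and basophil, lymphoid, fibroblast, endothelial) had 0 genes called in limma. For the brighter probe sets (mean above the median), deviations from the group mean correlated between arrays that share a number in the labels at 0.106 to 0.596 and between the others at -0.422 to 0.107 (0.0308 to 0.156 and -0.105 to 0.025 over all probe sets). The labels do not tie the numbers to shared experiments. Same-numbered arrays were taken as pairs on the basis of the brighter probe sets. Over all probe sets, not every such pair was above 0.1. This choice was made after both fits had been seen, and the fit without the block stayed the main one.

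The alternatives changed the normalisation (quantile, or centring on the median), the scale (a pseudocount of 32), the filter (dim probe sets removed), the variance model (eBayes without trend), the groups in the fit, the test (the methods' t-test), the probe sets (1 for each gene), the block and the arrays left out. The block with arrays left out was added after seeing the data.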

Additional observations from a re-analysis of the deposited data

How the results depend on the processing

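The number of member probe sets called was 0 in all 7 comparisons without the block and stayed 0 under the filter, both other normalisations, the pseudocount, eBayes without trend, fits restricted to the compared groups, the adjusted t-test, 1 probe set for each gene and each array left out (range 0 to 0). With the replicate block, which uses the pairing of the arrays by number, the members called numbered 1 in NA10 against the GFP control and 1 in the active fusions against the other groups, and the block changed no other call. With the block and both doubtful arrays left out, the members called numbered 1 in each of the 5 comparisons named for Hlf. At an unadjusted p < 0.05 the members past the threshold numbered 1 for ND13, 2 for NA10 (both against the GFP control), 2 for ND13 against ND13(N51S), 4 for NA10 against ND13(N51S), 1 for ND13 against NA10 and 3 for the active fusions against the other groups. By the methods' t-test at an unadjusted p they numbered 2 for NA10 against the GFP control (Hlf), 1 for ND13 against ND13(N51S) (Gata2), 1 for ND13 against NA10 (Hlf) and 2 for the active fusions against the other groups (Hlf).

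Of 39 log2 fold changes of single members (none of Erg, which was under background), 30 kept their sign under all settings, those of Hlf among them. The 39 were the probe sets that stand for a gene against the GFP control, and any past the unadjusted threshold in a comparison. The signs of the latter were likely to hold because of that choice. Hlf 1434735_at in ND13 against ND13(N51S) was not among the 39. It turned from 0.03 to -0.14 without ND13(N51S) replicate 2. Of the 39, 9 did not keep their sign, all of them uncalled and of Mecom, Lmo2, Lyl1, Fli1 or Etv6 against the GFP control. For ND13, Lmo2 turned to -0.024 and Lyl1 to -0.055 under median centring, and Etv6 to -0.053 under quantile normalisation, -0.063 under median centring, -0.19 without both doubtful arrays and -0.11 when the block was added to that. For ND13(N51S), Lyl1 turned to 0.26 without both arrays and 0.28 with the block, and Fli1 to -0.10 under median centring, -0.025 without both arrays and -0.064 with the block. With each array left out, the range for ND13 was -0.14 to 0.20 for Lmo2, -0.10 to 0.14 for Lyl1 and -0.28 to 0.28 for Etv6. For NA10 it was -0.33 to 0.36 for Mecom and -0.022 to 0.31 for Lmo2. For ND13(N51S) it was -0.0024 to 0.75 for Mecom, -0.24 to 0.12 for Lmo2, -0.46 to 0.26 for Lyl1 and -0.14 to 0.12 for Fli1. The causes were not tested. Median centring moved the median of all probe sets by -0.11 in ND13(N51S) against the GFP control. Signals near the background of 28.5 to 69.8 limit Erg and Mecom 1423011_at.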
